A study of Rattus norvegicus with 24 samples.

Results

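A group of 10 glutathione transferase genes was followed in rat lung: Gstm1, Gstm2, Gsta4, Gstp1, Gstt1, Gstt2, Gsto1, Mgst1, Mgst2 and Mgst3. They were taken by gene symbol from the raw count table of each library, where all 10 were found among 16881 distinct symbols. The series measured lungs of rats exposed repeatedly to whole-cigarette smoke condensate (WCSC), the particulate and tar material collected from cigarette smoke. The exposed groups received 5, 10 or 20 mg/mL for 6 days or the same doses for 12 days, and control lungs were taken at both times. Each of these 8 groups had 3 libraries, 24 in all, and every sample carried the genotype label WT. Strain, sex, age, route and the control treatment are not given in the labels used here, and the labels do not say that replicates were separate animals, so p-values measure the spread between samples. Surfactant and other alveolar type II markers summed to between 7368 and 28898 CPM in every library (CPM is a count scaled by the TMM-corrected library size).

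Glutathione transferases join the tripeptide glutathione to reactive electrophiles, among them epoxides and aldehydes of tobacco smoke and of oxidised lipids, and the conjugates are then pumped out of the cell. The soluble enzymes fall into classes, of which mu, alpha, pi, theta and omega are represented here, while Mgst1, Mgst2 and Mgst3 encode small enzymes embedded in membranes. In lung they are found in airway epithelium, above all in club and ciliated cells, and in alveolar cells. Several classes are induced through antioxidant response elements bound by NRF2, and some through xenobiotic response elements bound by the aryl hydrocarbon receptor.

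Promoter sequence was available from RefSeq (build GRCr8) for 7 of the 10 genes: Gstm1, Gstm2, Gsta4, Gstp1, Gsto1, Mgst1 and Mgst3. The 250 bases before the start of each were searched on both strands for the antioxidant response element core TGACNNNGC, the AP-1 site TGACTCA and the xenobiotic response element TNGCGTG. The promoters of Gstp1 and Gstm1 are shown because these are the genes with the largest differences at 20 mg/mL. Capitals in Gstp1 mark the match to the antioxidant element, from 61 to 53 bases before the start, which overlaps a match to the AP-1 site from 61 to 55 bases before it. The window before Gstp1 lies at chr1:210769706-210769955 and that before Gstm1 at chr2:198343384-198343633, both on the minus strand and both printed 5′ to 3′ toward the gene.
Gstp1: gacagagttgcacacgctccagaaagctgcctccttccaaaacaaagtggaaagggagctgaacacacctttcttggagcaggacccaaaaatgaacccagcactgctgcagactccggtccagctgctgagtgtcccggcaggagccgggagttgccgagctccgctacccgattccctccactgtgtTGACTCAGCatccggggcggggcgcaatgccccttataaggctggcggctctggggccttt
Gstm1: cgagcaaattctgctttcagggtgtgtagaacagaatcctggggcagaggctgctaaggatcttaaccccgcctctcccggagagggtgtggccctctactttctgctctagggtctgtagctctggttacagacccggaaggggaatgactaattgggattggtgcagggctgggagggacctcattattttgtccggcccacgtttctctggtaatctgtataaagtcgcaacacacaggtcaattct
No match to these 3 motifs was found in the other 6 windows, Gstm1 included. Over 33469 RefSeq promoter windows of the same length, 10.1% held TGACNNNGC, 4.05% held TGACTCA and 4.09% held TNGCGTG, against 1 of these 7 windows for each of the first 2 motifs and 0 for the last. A match describes the sequence and not binding.

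Library totals lay between 4795667 and 11109713 counts (median 6840815), and 11426 genes, all 10 transferases included, passed the filter on low counts. Counts were not divided by transcript length, so levels are compared between samples of a gene and never between genes. With reads thinned to 4746678 per library, between 11446 and 12474 genes were detected. The library of 20 mg/mL and day 12, replicate 2, stood apart. Its mean log2 CPM of heart muscle markers was 8.44, the highest of the 24, and 4.20 was the next value, in 20 mg/mL and day 6, replicate 3. It also ranked first for club and goblet (9.75), ciliated (5.94), fibroblast (10.16) and squamous (6.76) markers and lowest for type II markers (8.99). Of the squamous and upper airway list (5 listed, 4 in the files) only 1 gene was tested, so its mean is that of 1 gene.

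No transferase passed the adjusted threshold of 0.05 in any comparison with control. The edgeR quasi-likelihood test over all genes called 0 of the 10 at 5, 10 or 20 mg/mL on either day, where 0% of the 11426 genes were called in each of these 6 comparisons. DESeq2 and limma voom with quality weights also called 0 of the 10 (0 of 9 given an adjusted p by DESeq2 at 20 mg/mL on day 12). Over all genes, DESeq2 called 0, 0 and 3 of 14303 at 5, 10 and 20 mg/mL on day 6. On day 12 it called 1 and 1 of 14303 and 4 of 11248. Limma voom called 0, 5 and 2 of 11426 on day 6 and 0, 0 and 2 on day 12. At an unadjusted p under 0.05 there was 1 transferase at 20 mg/mL on day 6 (Gstp1, against 4.07% of all genes) and 1 at 20 mg/mL on day 12 (Gstm1, against 3.68%). At 5 and 10 mg/mL there was none on day 6 (4.69% and 2.7% of all genes) and none on day 12 (1.25% and 2.09%). The edgeR joint test of all 6 exposed groups against their controls called 0 of the 10 (0% of all genes). It had an unadjusted p under 0.05 for none of them (3.06% of all genes). In the joint test DESeq2 called 30 of 12080 genes and limma voom 4 of 11426, with 0 of the 10 in each.

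**Figure D1:**
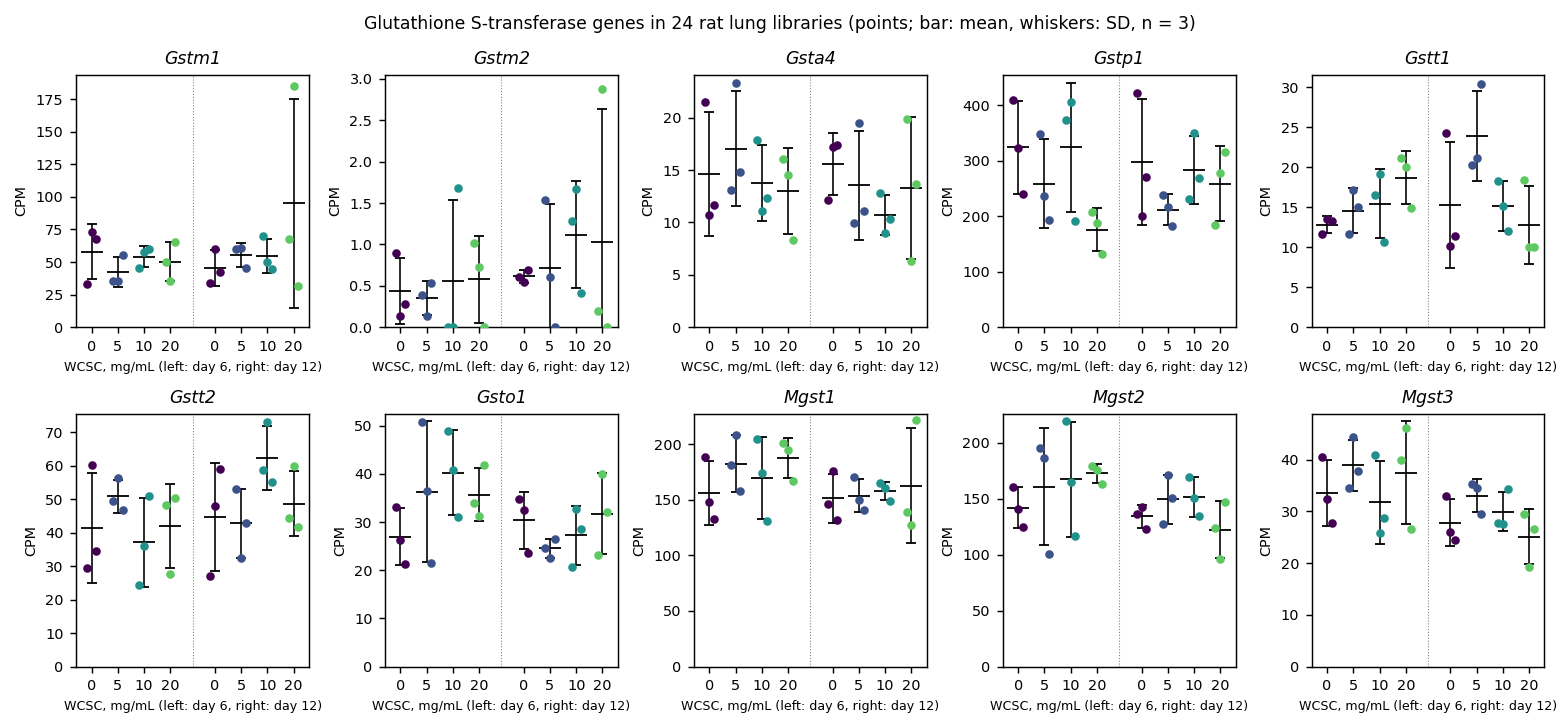
Levels in CPM of the 10 transferase genes in every library, by WCSC dose (0 is control, in mg/mL) and by day (day 6 left of the dotted line, day 12 right of it); points are libraries, bars the mean and whiskers the SD of 3. The Gstp1 points of 20 mg/mL on day 6 lie at 132 to 208 CPM, below the controls of that day, and 1 Gstm1 point of 20 mg/mL on day 12 lies at 185 CPM.

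Gstp1 encodes the pi-class enzyme, which in rat is best known as a marker of preneoplastic liver foci. It had 208, 187 and 132 CPM in lungs given 20 mg/mL for 6 days, against 408, 323 and 240 CPM in control lungs of that day. All 3 exposed lungs lay below all 3 controls, as was so for 4.67% of all genes. The means were 176 ± 39.1 CPM at 20 mg/mL and 324 ± 84.0 CPM in control (SD, n = 3 each). The log2 fold change was -0.88 (SE 0.31, 95% interval -1.53 to -0.23), with an edgeR adjusted p of 1.00. Over the alternative fits the estimate stayed below 0 and the adjusted p lay between 0.372 and 1.

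The lower doses of day 6 did not lie in order between control and 20 mg/mL. Gstp1 had 347, 236 and 192 CPM at 5 mg/mL and 373, 406 and 191 CPM at 10 mg/mL, so both groups overlapped the controls. The mean was 258 ± 80.1 CPM at 5 mg/mL and 324 ± 116 CPM at 10 mg/mL (SD, n = 3 each). The slope over dose was -0.40 on the log2 scale for each 10 mg/mL (SE 0.15, edgeR adjusted p = 1.00). For slopes on day 6, edgeR called 0 of the 10 transferases and 0.00875% of all genes, and an unadjusted p under 0.05 was found for 1 of the 10 (Gstp1) and 4.87% of all genes.

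On day 12 Gstp1 had 183, 277 and 315 CPM at 20 mg/mL, against 422, 200.2 and 269.6 CPM in control. These groups overlapped, with a log2 fold change of -0.20 (95% interval -0.85 to 0.45). The difference between the 2 days in the 20 mg/mL effect was 0.68 (95% interval -0.23 to 1.59, and 0.46 to 1.02 with 1 library left out). The interval includes 0, so a smaller effect on day 12 than on day 6 was not shown. For this difference between days, edgeR called 0 of the 10 transferases (0% of all genes), and 1 of the 10 (Gstm1) had an unadjusted p under 0.05, against 3.82% of all genes.

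Levels of cell type markers in the same groups of day 6 are given beside these values, with no test. Type II markers (8 listed, 7 in the files and tested, none at 0) summed to 23863 to 28898 CPM at 20 mg/mL, against 18111 to 23510.3 CPM in control, without overlap. By mean log2 CPM, the measure used for libraries and correlations, they overlapped, at 10.30 to 10.49 at 20 mg/mL and 9.93 to 10.37 in control. Macrophage markers (9 listed and in the files, 8 tested, Marco at 0 in both groups) summed to 510.4 to 597 CPM at 20 mg/mL, against 321 to 467 CPM in control, and by mean log2 CPM they lay at 5.06 to 5.30 at 20 mg/mL and 4.38 to 4.73 in control, so neither measure overlapped. Club and goblet markers (8 listed, 7 in the files and tested, none at 0) summed to 3441 to 13003 CPM at 20 mg/mL and 10199 to 18103 CPM in control, and these overlapped. Their mean log2 CPM ran the other way in 2 of 3 libraries, with 7.32, 2.45 and 8.05 at 20 mg/mL, against 4.97, 5.33 and 5.92 in control. The part of these cell types in the Gstp1, Gstt1 and Mgst2 values was not tested, and in pieces of whole lung fewer cells of a type and less RNA per cell cannot be told apart. Across all 24 libraries Gstp1 correlated with type II markers at r = 0.01, with club and goblet markers at r = -0.10 and with macrophage markers at r = -0.29. Within day 6 the macrophage value was -0.35. None of these passed the threshold after adjustment.

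Gstm1 encodes a mu-class enzyme that conjugates epoxides and quinones. It had 67.6, 185 and 31.9 CPM in lungs given 20 mg/mL for 12 days, against 33.6, 60.2 and 42.5 CPM in control lungs of that day. The exposed group held both the highest and the lowest Gstm1 value of all 24 libraries, and it spanned the controls on both sides. The means were 95.0 ± 80.3 CPM at 20 mg/mL and 45.5 ± 13.5 CPM in control (SD, n = 3 each). The log2 fold change was 1.06 (SE 0.42, 95% interval 0.18 to 1.94, edgeR adjusted p = 0.998).

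A single library set this value. The 185 CPM, from 965 counts, belonged to replicate 2, whose heart muscle, club and ciliated markers were the highest, and it was 2.54 times the next highest Gstm1 value. By limma voom with quality weights, which gives outlying libraries less weight, the log2 fold change was 0.36. Without this library it was 0.12 (edgeR adjusted p = 1.00), the slope over dose 0.03, against 0.51 with it (SE 0.20), and the difference between days 0.33, against 1.27 with it (95% interval 0.03 to 2.50). Heart muscle markers (8 listed and in the files, 7 tested, none at 0 in either group) summed to 30.0 to 3092 CPM at 20 mg/mL on day 12, against 42.5 to 151 CPM in control. For slopes on day 12, edgeR called 0 of the 10 transferases (0% of all genes), and 1 of the 10 (Gstm1) had an unadjusted p under 0.05, against 4.36% of all genes.

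On day 6 Gstm1 had 50.0, 35.3 and 65.6 CPM at 20 mg/mL, against 33.5, 73.1 and 67.7 CPM in control. The groups overlapped and the log2 fold change was -0.21 (95% interval -1.08 to 0.66). At 5 and 10 mg/mL its values lay between 35.5 and 69.6 CPM over both days.

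The second mu-class gene, Gstm2, was barely measured and passed the filter on low counts through its few highest libraries. It had 106 reads in all 24 libraries together and none in 5 of them, for which 0 counts allow up to 0.360 to 0.446 CPM (3 counts, counting error only). At 20 mg/mL it had 5, 6 and 0 reads on day 6 and 1, 15 and 0 reads on day 12, against 7, 1 and 2 reads in day 6 controls and 3, 3 and 5 reads in day 12 controls. Its 15 reads were the most in any library and came from the same replicate 2 of 20 mg/mL on day 12. No dose difference was detectable at this depth. Gstm1, Gstm2 and Gstm4 stand next to each other in the RefSeq gene order and are close relatives, so reads may have been split among them, and the same holds for Gstp1 (beside Gstp3), Gstt1 (between Gstt4 and Gstt3), Gsta4 (beside Gsta5) and Gsto1 (beside Gsto2).

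Gsta4 encodes the alpha-class enzyme specialised in 4-hydroxynonenal, an aldehyde of oxidised lipids. It had 16.1, 14.5 and 8.31 CPM at 20 mg/mL on day 6, against 21.5, 10.7 and 11.7 CPM in control. On day 12 it had 19.8, 6.34 and 13.7 CPM at 20 mg/mL, against 12.1, 17.2 and 17.4 CPM in control. Both pairs of groups overlapped, with log2 fold changes of -0.18 (95% interval -0.98 to 0.62) on day 6 and -0.23 (95% interval -1.04 to 0.58) on day 12. The 6.34 CPM came from the replicate 2 library that stood apart. Without that library the day 12 mean at 20 mg/mL was 16.8 CPM, against 13.3 CPM with it and 15.6 CPM in control.

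Gstt1 and Gstt2 encode theta-class enzymes, which act on small halogenated compounds and, for rat Gstt2, on sulfate esters. Gstt1 had 21.2, 20.1 and 15.0 CPM at 20 mg/mL on day 6, against 11.6, 13.6 and 13.3 CPM in control. All 3 exposed lungs lay above the controls, as was so for 4.07% of all genes, with means of 18.7 ± 3.31 CPM at 20 mg/mL and 12.8 ± 1.04 CPM in control (SD, n = 3 each). The log2 fold change was 0.54 (SE 0.33, 95% interval -0.14 to 1.23), so the interval included 0. On day 12 it had 18.4, 9.99 and 10.0 CPM at 20 mg/mL, against 24.3, 10.1 and 11.4 CPM in control, and the groups overlapped (log2 fold change -0.25, 95% interval -0.94 to 0.44). Without the replicate 2 library that stood apart (9.99 CPM) the Gstt1 mean at 20 mg/mL was 14.2 CPM, against 15.3 CPM in control. The difference between days was -0.80 (95% interval -1.77 to 0.18), and -0.30 to -1.15 with 1 library left out.

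The highest group mean of Gstt1 was that of 5 mg/mL on day 12, with 20.3, 21.1 and 30.5 CPM, against 24.3, 10.1 and 11.4 CPM in control. Its log2 fold change was 0.66 (95% interval -0.03 to 1.34, edgeR adjusted p = 1.00). The control value of 24.3 CPM overlapped the exposed ones. Without that control, replicate 1, the log2 fold change was 1.15, and without control replicate 2 it was 0.43. By limma voom with quality weights it was 1.00. Gstt2 had log2 fold changes of 0.02 (95% interval -0.63 to 0.68) on day 6 and 0.12 (95% interval -0.54 to 0.78) on day 12 at 20 mg/mL. It had 48.4, 27.7 and 50.3 CPM at 20 mg/mL on day 6, against 29.5, 60.3 and 34.6 CPM in control. On day 12 it had 44.4, 59.9 and 41.8 CPM at 20 mg/mL, against 27.1, 47.9 and 59.0 CPM in control. The groups of Gstt2 overlapped on both days. Without replicate 2 (59.9 CPM) its day 12 mean at 20 mg/mL was 43.1 CPM, against 44.7 CPM in control.

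Gsto1 encodes the omega-class enzyme, which reduces dehydroascorbate and arsenic compounds. On day 6 it had 50.8, 36.5 and 21.6 CPM at 5 mg/mL, 48.8, 40.9 and 31.1 CPM at 10 mg/mL and 34.0, 31.2 and 41.8 CPM at 20 mg/mL, against 33.1, 26.3 and 21.3 CPM in control. The means of the 3 exposed groups (36.3 ± 14.6, 40.2 ± 8.89 and 35.7 ± 5.51 CPM from low to high dose) were above that of control (26.9 ± 5.93 CPM; SD, n = 3 each), but every exposed group overlapped it. The log2 fold change was 0.58 at 10 mg/mL (95% interval -0.003 to 1.16, edgeR adjusted p = 0.989) and 0.41 at 20 mg/mL (95% interval -0.18 to 0.99). The smallest adjusted p of any transferase under any alternative belonged to Gsto1 at 10 mg/mL on day 6, with 0.0719 by limma voom with quality weights, a fit in which 25.9% of all genes had an unadjusted p under 0.05 in that comparison. On day 12 it had 23.2, 39.9 and 32.0 CPM at 20 mg/mL, against 34.8, 32.6 and 23.6 CPM in control. These groups overlapped, with a log2 fold change of 0.07 (95% interval -0.52 to 0.65). Without replicate 2 (39.9 CPM) the mean at 20 mg/mL was 27.6 CPM, against 30.3 CPM in control.

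The membrane enzymes have roles in lipid peroxide reduction (Mgst1) and, for human MGST2 and MGST3, in making leukotriene C4. Mgst2 had 179, 176 and 163 CPM at 20 mg/mL on day 6, against 161, 140.4 and 125 CPM in control. All 3 exposed lungs lay above all 3 controls, as was so for 4.07% of all genes. The log2 fold change was 0.28 (95% interval -0.21 to 0.77), so the interval included 0. Mgst1 had 201, 195 and 167 CPM at 20 mg/mL, against 188, 148 and 133 CPM in control, and these overlapped (log2 fold change 0.26, 95% interval -0.17 to 0.70). Mgst3 had 39.9, 46.1 and 26.6 CPM at 20 mg/mL, against 40.5, 32.3 and 27.8 CPM in control, and these overlapped as well (log2 fold change 0.16, 95% interval -0.33 to 0.65).

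On day 12 Mgst1 had 139, 127 and 222 CPM at 20 mg/mL, against 147, 175 and 132 CPM in control. Mgst2 had 124, 96.2 and 147 CPM at 20 mg/mL, against 136, 143 and 123 CPM in control. Mgst3 had 29.6, 19.2 and 26.5 CPM at 20 mg/mL, against 33.0, 26.0 and 24.5 CPM in control. All 3 genes overlapped between these groups, and they had log2 fold changes at 20 mg/mL of 0.10 (Mgst1, 95% interval -0.33 to 0.54), -0.13 (Mgst2, 95% interval -0.62 to 0.36) and -0.15 (Mgst3, 95% interval -0.64 to 0.35). The replicate 2 library of 20 mg/mL had the lowest value of all 24 for each of the 3 genes. Without it the 20 mg/mL means were 180, 135 and 28.0 CPM for Mgst1, Mgst2 and Mgst3. In control they were 151, 134 and 27.8 CPM. The intervals of these genes are the narrowest of the family, and the libraries of a group differed least: the mean coefficient of variation within groups was 15.7% for Mgst1, 17.0% for Mgst2 and 17.9% for Mgst3, against 32.9% for Gstm1.

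**Figure D2:**
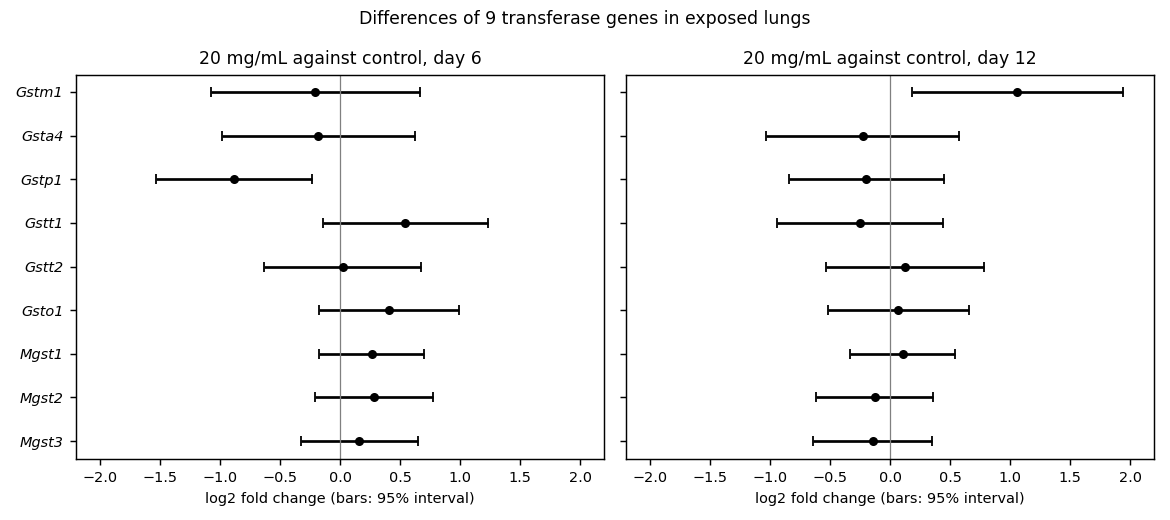
Log2 fold change of 9 transferase genes (Gstm2 left out for its few reads) at 20 mg/mL against control on day 6 (left) and day 12 (right); points are the edgeR estimates and bars the 95% intervals. The intervals leave out 0 for Gstp1 on day 6 (-0.88) and Gstm1 on day 12 (1.06, which is 0.12 without 1 library), before any adjustment for the genes tested.

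Group separation was also read against all genes. At 20 mg/mL on day 6, 2 of the 10 transferases were higher without overlap (Gstt1 and Mgst2), where 4.07% of all genes were, and 1 was lower without overlap (Gstp1), where 4.67% were. In the other 5 comparisons with control and between the controls of the 2 days, 0 of the 10 were separated. Background shares there were 3.57% higher and 4.09% lower for 20 mg/mL on day 12. They were 4.17% and 4.13% for 5 mg/mL and 2.98% and 3.24% for 10 mg/mL on day 6. On day 12 they were 3.86% and 3.93% for 5 mg/mL and 3.91% and 4.55% for 10 mg/mL, and between controls, day 12 against day 6, they were 4.71% and 4.21%. The median log2 fold change of the 10 was 0.21 at 20 mg/mL on day 6 (-0.003 over all genes) and -0.03 on day 12 (0.01 over all genes). Between controls of the 2 days, edgeR called 0 of the 10 (0% of all genes), and 0 of the 10 had an unadjusted p under 0.05 (2.48% of all genes). DESeq2 and limma voom also called 0 of the 10 there, and 0 of all genes.

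Over the 8 groups, the means of each gene were also set in order, which cannot decide whether groups differ. Neighbours in a ranked set lie close by construction, an SD is not the error of a mean, and the share over all genes was not computed. For each gene the 8 means were ranked and the 7 neighbouring pairs compared with the larger of their 2 SDs. In 9 of the genes no neighbouring pair differed by more than that SD, and in Gstt2 there was 1 such pair, 10 mg/mL on day 12 (62.3 ± 9.55 CPM) and 5 mg/mL on day 6 (50.8 ± 4.96 CPM; SD, n = 3 each). The ratio of the highest to the lowest group mean ran from 1.24 for Mgst1 to 2.25 for Gstm1, Gstm2 left aside. The Gstm1 ratio rests on replicate 2 of 20 mg/mL and day 12, without which it was 1.38, and the highest ratio was then 1.87, for Gstt1.

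Pairs of transferases were also compared over the libraries, and the share of all gene pairs that pass was not computed. Of 45 pairs of transferases, 5 had a Pearson correlation of log2 CPM past an adjusted permutation p of 0.05 over the 24 libraries (100000 resamples, two-sided, Benjamini-Hochberg over the pairs), and 1 pair passed by Spearman's rho. Mgst1 and Mgst2 gave r = 0.71 (rho = 0.76, adjusted permutation p = 0.00495). It was 0.76 without the 2 libraries farthest from the median of Mgst1, 0.82 within day 6 and 0.48 within day 12. For every pair the 2 libraries left out were those farthest from the median of the gene named first. Mgst1 and Mgst3 gave r = 0.56 (adjusted permutation p = 0.0400) and rho = 0.48 (adjusted permutation p = 0.179, which did not pass), with 0.66 without those 2 libraries, 0.72 within day 6 and 0.19 within day 12. The remaining membrane pair, Mgst2 and Mgst3, did not pass (r = 0.52, adjusted permutation p = 0.0508). The other 3 pairs were Gsta4 with Mgst3 (0.57), Gstm1 with Mgst1 (-0.56) and Gstm1 with Mgst3 (-0.61). Without the 2 libraries farthest from the median of Gsta4 or of Gstm1, those 3 were 0.33, -0.41 and -0.55 and no longer passed. The last of them was nearly as large as before. Within day 12 alone no pair passed.

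**Figure D3:**
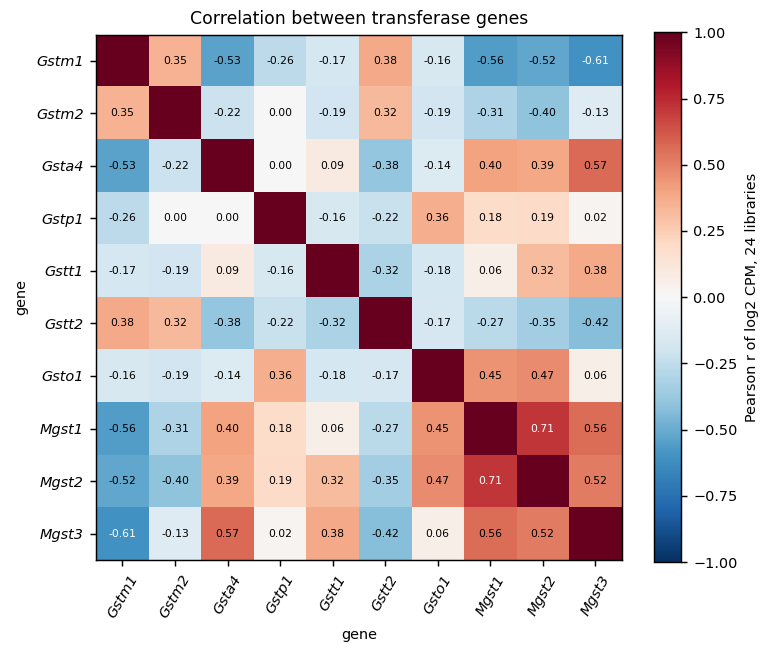
Pearson correlation of log2 CPM between the 10 transferase genes over 24 libraries (both axes list the genes; the colour scale runs from -1 to 1). The block of Mgst1, Mgst2 and Mgst3 is positive, with 0.71 for Mgst1 and Mgst2, and Gstm1 is negative against all 3.

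Some of the transferases correlated with cell type markers, and the share of all genes that do so was not computed. Of 110 relations between a transferase and the mean log2 CPM of a marker list (1 gene for the squamous list), 14 passed at an adjusted permutation p of 0.05 (Benjamini-Hochberg over the 110) and 6 by rho. Those 6 were Mgst1 and Mgst2 with type II markers, Gstm1 with ciliated and heart muscle markers, and Gsta4 and Mgst3 with red blood cell markers. Mgst2 correlated with the type II markers with r = 0.78 (rho = 0.78, adjusted permutation p = 0.0011). It was 0.80 without the 2 libraries farthest from the median of these markers, 0.86 within day 6 and 0.81 within day 12. The value within day 12 did not pass after adjustment. Mgst1 correlated with them with r = 0.65 (rho = 0.72, adjusted permutation p = 0.00385), 0.68 without those libraries, 0.79 within day 6 and 0.55 within day 12. For Mgst3 the value was 0.55, and 0.35 without those 2 libraries, which no longer passed.

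Gstm1 correlated with the ciliated cell markers with r = 0.70 (rho = 0.73, adjusted permutation p = 0.0055). The value was 0.75 without the 2 libraries farthest from the median of these markers, 0.64 within day 6 and 0.78 within day 12. Those 2 were 20 mg/mL on day 6, replicate 2 (2.35), and 10 mg/mL on day 12, replicate 3 (3.09). The library of 20 mg/mL and day 12, replicate 2, with 185 CPM of Gstm1, thus stayed in the 0.75. Within day 6, which leaves that library out, the relation did not pass after adjustment. The correlations of Gstm1 with heart muscle (0.79), fibroblast (0.76), club and goblet (0.65) and type II markers (-0.74) passed as well. Without the 2 libraries farthest from the median of each marker list they were 0.49, 0.28, 0.35 and -0.48 and no longer passed. For each of these lists the replicate 2 library that stood apart was among those left out. By rho the heart muscle relation passed over all 24 libraries (0.69, adjusted permutation p = 0.0066). Within day 6, r was 0.59 for heart muscle and -0.67 for type II markers, and neither passed after adjustment. Gsta4 correlated with red blood cell (0.65), type I (0.62) and heart muscle (-0.56) markers, Mgst3 with red blood cell (0.70) and heart muscle (-0.64) markers, and Mgst1 with red blood cell markers (0.56). Without the 2 farthest libraries none of those 6 passed. Both red blood cell values of Gsta4 and Mgst3 were then nearly as large (0.61 and 0.60). They passed within day 6 (0.82 and 0.77, adjusted permutation p = 0.0264 each), as did Mgst3 with heart muscle markers (-0.76). Within day 12 the red blood cell values were 0.69 for Gsta4 and 0.25 for Mgst3, and neither passed. Without the 2 farthest libraries Gsta4 gave 0.25 with type I and -0.11 with heart muscle markers. Mgst1 then gave 0.45 with red blood cell markers, and Mgst3 gave -0.43 with heart muscle markers. Gstp1, Gstt1, Gstt2 and Gsto1 had no relation past the threshold over the 24 libraries.

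**Figure D4:**
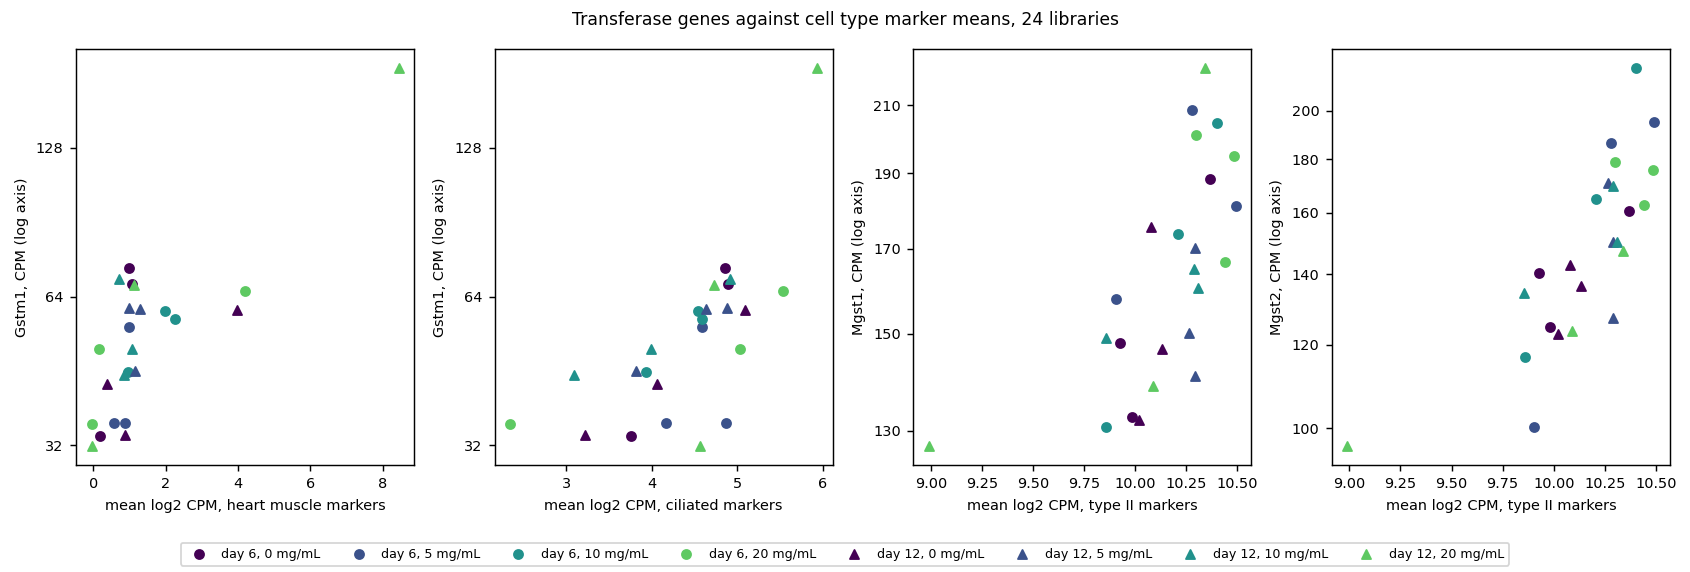
Level in CPM of a transferase (vertical, log axis) against the mean log2 CPM of a marker list (horizontal) in 24 libraries, coloured by dose with circles for day 6 and triangles for day 12. Gstm1 stands at 185 CPM in the library with heart marker mean 8.44, while Mgst1 and Mgst2 are higher where type II markers are higher (r = 0.65 and 0.78).

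Several transferases also correlated with a property of the libraries, how many genes each one detected after thinning to a common depth. Of 21 relations (10 transferases and 11 marker lists), 11 passed an adjusted permutation p of 0.05 by r (Benjamini-Hochberg over the 21) and 9 by rho. Of the 11, 8 were transferases. The share of all genes that correlate with this number was not computed, so the count is not shown to be particular to transferases. The correlation was 0.67 for Gstm1 (rho = 0.66, adjusted permutation p = 0.00178) and 0.54 for Gstt2. It was -0.68 for Mgst2 (rho = -0.64, adjusted permutation p = 0.00224), -0.66 for Mgst1, -0.54 for Gsta4, -0.54 for Gstp1, -0.53 for Mgst3 and -0.47 for Gsto1. Without the 2 libraries farthest from the median of detected genes, Gsta4, Mgst3 and Gsto1 (-0.38, -0.40 and -0.46) no longer passed. The value for Gsto1 was nearly the same as with all libraries. Type II markers gave -0.56, red blood cell markers -0.71 and heart muscle markers 0.46. Mgst1 and Mgst2 vary together with type II markers and with library complexity at once, and their parts in the correlations were not tested. In a fit that included this detected-gene number, the 20 mg/mL difference of Gstp1 on day 6 was -0.88, as without it. The number was 11987, 11717 and 12474 in those exposed lungs and 11543, 12408 and 12181 in their controls. As the groups were so alike in it, the fit could hardly move the estimate. The part of library complexity in the Gstp1 values was therefore not tested.

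For each transferase the 2 named genes whose log2 CPM had the highest Pearson correlation with it over the 24 libraries are given, with no test. They were Selenbp1 (0.91) and Kctd10 (0.89) for Gstp1, Thrsp and Ckb (0.84 each) for Gstm1, Peo1 (0.67) and Usp13 (0.66) for Gstm2 and Vamp8 (0.85) and Scfd1 (0.79) for Gsta4. They were Rbpj (0.73) and Ssr1 (0.71) for Gstt1, Txndc5 and Bola3 (0.86 each) for Gstt2 and Rgs10 (0.85) and Iah1 (0.84) for Gsto1. For the membrane enzymes they were Spcs1 and Laptm4a (0.86 each) for Mgst1, Defb4 (0.89) and Vnn1 (0.87) for Mgst2 and Aldh2 (0.80) and Dynll2 (0.79) for Mgst3.

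Genes around the transferases were read from 3 lists. Of 25 other transferases and relatives, 22 were in the files and 15 were tested. Gstcd, Ptges, Alox5ap, Clic1 and Clic4, all tested, stand in that list as relatives and not as glutathione transferases. Of 24 genes for glutathione synthesis, breakdown and conjugate export 22 were tested, and of 22 genes for the glutathione redox cycle and NRF2 regulation all 22. EdgeR called 0 members of any list in any comparison, and limma voom with quality weights did too. DESeq2 also called 0 of the genes it gave an adjusted p. Those were 9 of 15, 16 of 22 and 19 of 22 for the day 6 slope. They were 14 of 15 transferases and relatives at 20 mg/mL on day 12, and all of the tested genes elsewhere. At 20 mg/mL on day 6 the estimate was higher for 4 of 15 transferases and relatives. So it was for 14 of 22 synthesis and export genes and 13 of 22 redox genes. The medians of the 3 lists were -0.23, 0.14 and 0.11 on the log2 scale, against -0.003 over all genes. On day 12 it was 12 of 15, 13 of 22 and 14 of 22, with medians of 0.25, 0.16 and 0.05, against 0.01 over all genes. At an unadjusted p under 0.05 there were 0, 2 and 0 members on day 6 and 1, 0 and 1 on day 12, where 4.07% of all genes were so on day 6 and 3.68% on day 12.

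The 2 genes of each list with the smallest p in the joint test are given with their values. Abcc3, an exporter of glutathione and glucuronide conjugates, had 10.5 ± 3.62 CPM at 20 mg/mL on day 6 and 23.4 ± 1.21 CPM in control (SD, n = 3 each). Its log2 fold change was -1.15 (SE 0.29, edgeR adjusted p = 0.705). On day 12 it had 13.5 ± 2.03 CPM at 20 mg/mL and 11.9 ± 2.55 CPM in control (SD, n = 3 each). Hpgds, the sigma-class transferase that makes prostaglandin D2, had 3.37, 35.1 and 8.07 CPM at 20 mg/mL on day 12, against 6.28, 2.71 and 1.67 CPM in control. The 35.1 CPM came from the replicate 2 library that stood apart, and the groups overlapped. Glrx5, a mitochondrial glutaredoxin of iron-sulfur cluster assembly, had 91.3, 39.2 and 57.6 CPM at 20 mg/mL on day 12, against 33.0, 32.6 and 39.8 CPM in control. These overlapped, and the log2 fold change was 0.83 (95% interval 0.14 to 1.52). On day 6 Glrx5 had 39.3, 72.9 and 49.2 CPM at 20 mg/mL, against 111, 50.0 and 50.6 CPM in control, which overlapped too.

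Slc7a11, the cystine importer, had 1.85 ± 1.88 CPM at 20 mg/mL on day 6 and 0.437 ± 0.395 CPM in control (SD, n = 3 each). It was barely measured, with 191 reads in all 24 libraries together. On day 12 it had 0.595, 4.22 and 1.47 CPM at 20 mg/mL, against 1.01, 1.27 and 2.50 CPM in control. Gsta3, an alpha-class transferase, had 2.56 ± 2.39 CPM at 20 mg/mL on day 6 and 5.51 ± 0.951 CPM in control (SD, n = 3 each), with a log2 fold change of -1.16 (95% interval -2.47 to 0.16). Its day 12 values were 9.13, 15.2 and 2.94 CPM at 20 mg/mL, against 2.63, 5.97 and 5.01 CPM in control (log2 fold change 0.98, 95% interval -0.30 to 2.26), the highest again from replicate 2. Maff, a small MAF partner of NRF2, had 19.6 ± 1.12 CPM at 20 mg/mL on day 6 and 20.1 ± 6.34 CPM in control (SD, n = 3 each). At 5 mg/mL it had 46.6, 28.5 and 26.6 CPM on day 6, against 14.3, 26.9 and 19.2 CPM in control. On day 12 it had 34.9, 27.8 and 22.7 CPM at 5 mg/mL, against 25.3, 21.2 and 16.4 CPM in control. Both of these pairs of groups overlapped. None of these 6 genes passed the adjusted threshold in the joint test (adjusted p = 1.00 each, edgeR).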

How the data were processed

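RNA of 24 rat lung samples was extracted with Trizol and made into libraries with a Lexogen QuantSeq kit, per the labels' protocols. Raw counts of reads, 1 table per sample with a gene symbol on each line, are what the authors deposited. Bowtie2, bedtools and build rn6 are named in the submitters' processing notes; of versions, annotation and strand setting nothing is stated in those notes or labels. Kits of that name usually read transcript ends, where the annotation of the end bears on a count; whether these did was not checked.

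Each table had 17048 lines and 16881 distinct symbols. The 167 later lines of a repeated symbol (0.982% of counts) were left out. Totals were 4795667 to 11109713. After filterByExpr 11426 genes were scaled by TMM (0.805 to 1.12) and fitted by edgeR 4.0.16 in R 4.3.3 as 8 group means, with 16 residual degrees of freedom. Tests were two-sided, adjusted by Benjamini-Hochberg over all genes tested, threshold 0.05. CPM use TMM library sizes, and log2 CPM a prior count of 2. The fit was tested on simulated data. No 2 libraries were identical. Alternatives were RLE scaling, no filter, DESeq2 1.42.0, limma 3.58.1 voom with quality weights, only the groups compared, the replicate number as a block, detected genes as a covariate, and each library left out. Correlations with detected genes were added after seeing the data.

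All 10 transferases were named whatever their p, with the 2 most correlated named genes each and, per list, the 2 genes of smallest p in the joint test (Hpgds, Gsta3, Abcc3, Slc7a11, Maff and Glrx5). The members and lists were chosen with earlier results of these data known.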

Additional observations from a re-analysis of the deposited data

How the results depend on the processing

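No transferase was called in any of the 11 comparisons under any alternative run, among members given an adjusted p. Over all genes, DESeq2 called 0 to 30 per comparison and limma voom with quality weights 0 to 5. DESeq2 gave none to 1 member in 2 comparisons, and the fit on only the groups compared tested 9 members in 9 of its 10 comparisons; the joint test already holds all groups and has no such fit. Over all 10 genes, 32 of 691 log2 fold changes changed sign when no replicate was left out, and 93 of 780 when 1 was left out. Leaving Gstm2 aside, the largest estimate that changed sign was 0.252 in size. At 20 mg/mL, limma voom with quality weights turned the sign of Gsta4 (0.14) and Gstt2 (-0.25) on day 6 and of Gstt1 (0.17), Gstt2 (-0.17) and Mgst3 (0.054) on day 12; the cause was not tested. With 1 library left out, the day 6 ranges that crossed 0 were Gstt2 (-0.17 to 0.39), Gsta4 (-0.36 to 0.20) and Mgst3 (-0.018 to 0.36). On day 12 they were Gsta4 (-0.62 to 0.10), Gstp1 (-0.42 to 0.14), Gstt1 (-0.60 to 0.24), Gstt2 (-0.14 to 0.37), Gsto1 (-0.13 to 0.25), Mgst1 (-0.19 to 0.25), Mgst2 (-0.29 to 0.016) and Mgst3 (-0.28 to 0.012). Gstp1 at 20 mg/mL on day 6 stayed between -1.06 and -0.68.

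The 5 pairs of transferases that correlated became 2 without the 2 farthest libraries, 3 within day 6 and 0 within day 12, and the 14 relations with markers became 4, 4 and 0. Which libraries are farthest depends on the first gene of a pair, the marker list or the detected genes, so they are not 1 fixed set. Of those 4 without the farthest libraries, 3 were among the 14, and the other was Gstp1 with type I markers (-0.63). The 11 relations with detected genes became 7, 5 and 0. Within 1 day only 12 libraries enter. Same-numbered samples deviated together only in part (median correlation 0.06 over 36 pairs, 14 of them over 0.1, against -0.07 over 72 pairs of other numbers, 16 of them over 0.1; 0.17 and -0.10 on day 6, 0.02 and -0.02 on day 12; 13 of 24 samples correlated best with their own number), so the replicate numbers were not treated as pairs. With the replicate number as a block, edgeR called 0 transferases in every comparison, with a smallest adjusted p of 0.63, and Gsto1 at 10 mg/mL on day 6 had an adjusted p of 0.867 (0.0719 to 1 over all its alternatives).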
